A study of Mus musculus with 13 samples.

Results

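Polycomb repressive complex 2 (PRC2) was examined through the 10 genes that encode its catalytic, core and accessory subunits, in brains of mouse embryos with and without Meg3. The genes were Ezh2, Ezh1, Eed, Suz12, Rbbp4, Rbbp7, Jarid2, Mtf2, Phf1 and Phf19. Every probe set of the array annotated to one of these symbols was taken, whatever its value, which gave 31 of the 45101 probe sets and 10 of the 18193 named genes. Whole brains were taken at embryonic day 18.5 and hybridised to Affymetrix arrays, 1 embryo per array. There were 6 wild-type and 7 Meg3 knock-out embryos, which carried 5 different leading numbers in their embryo labels. The labels do not say what that number stands for; embryos that share it are called a litter here, and this reading was not tested. The labels give the genotype only as wild-type or Meg3 knock-out; the allele, the strain and the embryos' sex are not stated there. The title of the series places its question in the expression of angiogenic genes, and the PRC2 genes were taken because PRC2 has been proposed as a partner of Meg3 RNA.

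PRC2 is the enzyme complex that methylates lysine 27 of histone H3, a mark of repressed developmental genes. Ezh2 or its paralog Ezh1 carries the methyltransferase, and neither is active without Eed, which reads the methyl mark, and Suz12, the scaffold. Rbbp4 or Rbbp7 binds histones, and Jarid2, Mtf2, Phf1 and Phf19 direct the complex to chromatin. In the developing brain Ezh2 is known as the form of dividing progenitors, while Ezh1 is kept in cells that have stopped dividing.

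The labels held up on the targeted gene. Meg3, a maternally expressed long non-coding RNA, had a signal of 4955 ± 1374 (SD, n = 6) in wild-type and 378 ± 106 (SD, n = 7) in knock-out brains. The lowest wild-type embryo, at 3109, lay above the highest knock-out embryo, at 589 (log2 difference -3.64, limma adjusted p = 4.39e-07). All 8 neuronal markers were detected, with Tubb3, a neuronal tubulin, at 12447 to 18967 over the 13 arrays. The ratio of 3' to 5' probe sets of the Actb control, which rises as RNA is degraded, was 2.92 in wild-type 2 and 1.81 in knock-out 1, against 1.32 to 1.495 on the other 11 arrays. Correlations between arrays ranged from 0.881 to 0.988, and the mean correlation with the others was lowest in knock-out 1 (0.916), wild-type 2 (0.929) and wild-type 1 (0.932). Xist signal was at least 5525 in 2 wild-type and 3 knock-out embryos and at most 121 in the others.

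The promoters of Ezh2, Suz12 and Eed are shown because the signals of their highest-mean probe sets varied together between embryos, as described further on. The promoter of Ezh1 is shown because it is the paralog of Ezh2. Each sequence is the 250 bases upstream of the RefSeq start site on GRCm38.p6, 5' to 3' in the direction of the gene. Capitals mark the letters CCAAT, the box bound by NF-Y, or ATTGG where they lie on the other strand. The windows are chr6:47595031-47595280 on the minus strand for Ezh2, chr11:79992856-79993105 on the plus strand for Suz12 and chr7:89980977-89981226 on the minus strand for Eed. That of Ezh1 is chr11:101226464-101226713 on the minus strand.
Ezh2: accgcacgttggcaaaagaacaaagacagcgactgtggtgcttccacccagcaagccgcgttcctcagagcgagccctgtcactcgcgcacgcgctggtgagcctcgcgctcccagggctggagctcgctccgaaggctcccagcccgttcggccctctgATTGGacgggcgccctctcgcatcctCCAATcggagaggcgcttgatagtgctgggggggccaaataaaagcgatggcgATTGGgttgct
Suz12: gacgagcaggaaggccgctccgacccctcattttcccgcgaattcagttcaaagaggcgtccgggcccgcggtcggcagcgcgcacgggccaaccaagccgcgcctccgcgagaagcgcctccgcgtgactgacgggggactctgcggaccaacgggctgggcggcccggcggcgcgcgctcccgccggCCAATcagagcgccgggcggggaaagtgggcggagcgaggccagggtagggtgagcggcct
Eed: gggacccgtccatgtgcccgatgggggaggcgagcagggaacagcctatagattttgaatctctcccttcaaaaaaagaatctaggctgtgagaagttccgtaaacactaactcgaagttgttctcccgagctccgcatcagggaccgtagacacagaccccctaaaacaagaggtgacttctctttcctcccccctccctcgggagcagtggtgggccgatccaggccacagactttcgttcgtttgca
Ezh1: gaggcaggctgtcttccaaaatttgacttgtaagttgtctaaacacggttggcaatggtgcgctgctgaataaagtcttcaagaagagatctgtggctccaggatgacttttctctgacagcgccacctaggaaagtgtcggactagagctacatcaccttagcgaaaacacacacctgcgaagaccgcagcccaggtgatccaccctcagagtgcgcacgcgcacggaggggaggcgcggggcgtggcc

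The Ezh2 window held 3 CCAAT boxes, that of Suz12 held 1, and those of Eed and Ezh1 held none. All 10 genes had a RefSeq window, 12 windows in all, since Jarid2 and Mtf2 had a second. A gene was counted where any of its windows held the letters, while the background is a share of single windows, so the measures are unlike. The windows of 6 genes held CCAAT on either strand, that of Mtf2 only in its second window, against 33.8% of 32851 windows of the same length. The letters GGGCGG, the core of the GC box, stood in the windows of 7 genes on either strand, against 32.7% of all windows. CpG pairs were dense, with 23 in the Ezh2 window, 37 in that of Suz12, 14 in that of Ezh1 and 12 in that of Eed, against a median of 6 over all windows. A match to letters is a description of the sequence and not a binding site.

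Loss of Meg3 was accompanied by no PRC2 transcript difference that passed the test. Of the 31 probe sets, 23 had a mean log2 signal above the 40th percentile of the array, which corresponds to a signal of 56.9, and these covered all 10 genes. None of the 23 passed an adjusted p of 0.05 in limma, and none had an unadjusted p under 0.05; the smallest was 0.173. Over all 27022 probe sets tested, 0.0629% were called, all of them lower in knock-out brains and none higher. Of the 17 called, 11 were probe sets of Meg3, 3 of Rian and 2 of Mirg, and 1 was unnamed. Rian and Mirg are transcripts of the Meg3 cluster. Of all probe sets, 3.96% had an unadjusted p under 0.05, and nearly all of these were higher in knock-out brains (3.76% of all). The adjusted p of each PRC2 probe set was 1.00. In no PRC2 probe set did the 6 wild-type and 7 knock-out values separate without overlap, which occurred in 0.133% of all probe sets.

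The sizes that these arrays leave room for were modest. Differences are given as knock-out minus wild-type on the scale of log2(signal + 16), which understates changes of weak probe sets. They ran from -0.09 to 0.34, and the 95% intervals reached from -0.48 at the lowest to 0.86 at the highest. On this scale all 23 intervals lay within a 2-fold change in either direction, and 17 lay within 1.5-fold. On the scale of log2(signal + 1) the largest difference, that of Mtf2 1445151_at, was 0.42 ± 0.28 (SE), so these bounds depend on the scale. The mean was higher in knock-out brains in 19 probe sets and lower in 4, but 72.5% of all probe sets also had the higher mean there. The median difference was 0.11 for PRC2 and 0.08 over all probe sets tested, and 13 PRC2 probe sets lay above that overall median against 10 below it. When each array was centred on its median, the median over all probe sets moved to -0.12 and the PRC2 counts became 5 higher and 18 lower. Among all probe sets with an unadjusted p under 0.05, the split of 1015 higher and 55 lower then became 212 and 983, so the sign of these small differences depended on the scaling. In whole brain, fewer cells of a type and less RNA per cell cannot be told apart.

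**Figure D1:**
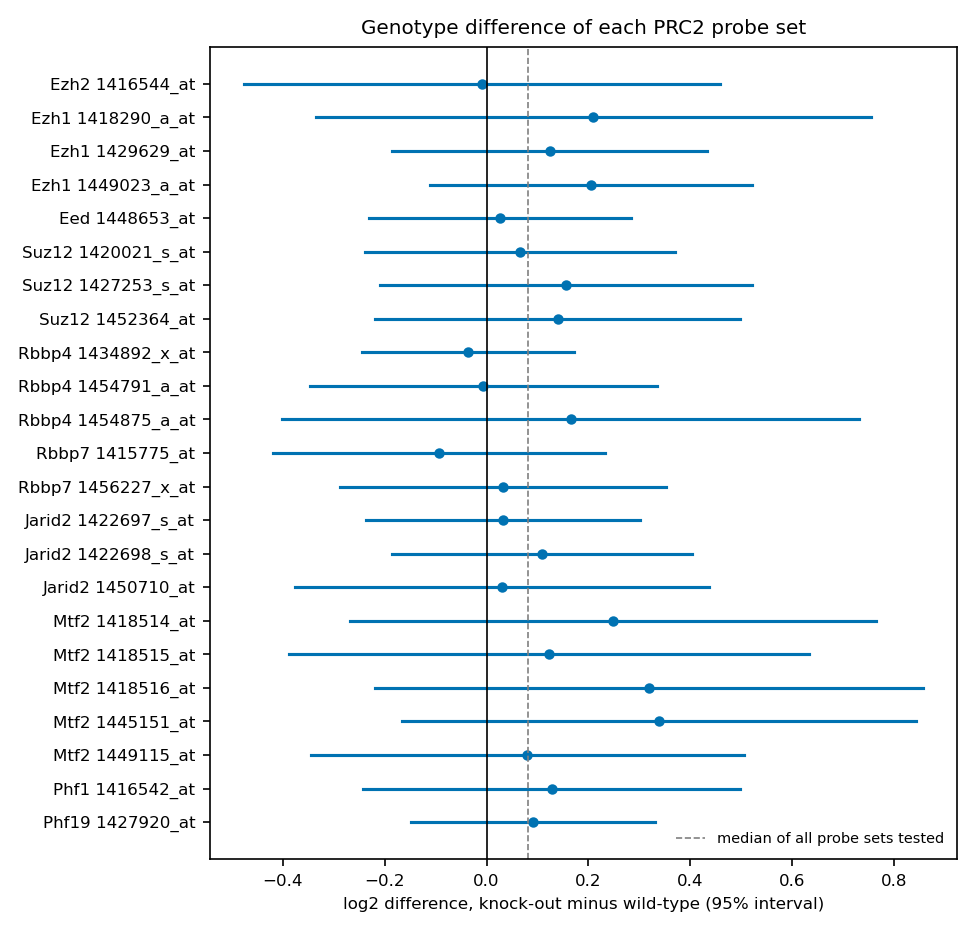
Log2 difference in signal (knock-out, n = 7, minus wild-type, n = 6) for the 23 PRC2 probe sets tested; points are the estimates, bars their 95% intervals from limma, and the dashed line the median of all probe sets tested, 0.08. Every interval crosses 0, and the estimates run from -0.09 for a probe set of Rbbp7 to 0.34 for one of Mtf2.

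Ezh2, the catalytic subunit of dividing cells, had close to equal means in the genotypes but a wide spread among embryos. Its only probe set, 1416544_at, gave 937, 2667, 1357, 1746, 1716 and 1682 in wild-type 1 to 6, a median of 1699, and 1927, 2415, 1348, 1235, 1751, 1320 and 1468 in knock-out 1 to 7, a median of 1468. The lowest and the highest value of all 13 embryos belonged to wild-type 1 and wild-type 2, which both carry the number 219, and the next highest was knock-out 2 of the same litter. The means were 1684 ± 572 (SD, n = 6) and 1638 ± 423 (SD, n = 7), a difference of -0.01 ± 0.22 (SE; 95% interval -0.48 to 0.46; two-sided exact permutation p = 0.975). Within the 4 litters that held both genotypes, knock-out embryos differed by 0.60 in litter 219, by -0.07 in litter 238 and by -0.19 in each of litters 250 and 262.

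Ezh1, the paralog of non-dividing cells, was read by 3 tested probe sets that all had a higher knock-out mean without passing the test. In 1449023_a_at, the one with the highest signal, wild-type embryos ranged from 276 through a median of 372 to 414, and knock-out embryos from 355 through 370 to 613. Knock-out 1 stood alone at 613, and the other 6 knock-out embryos lay between 355 and 463. Without knock-out 1 the difference given next was 0.11. The means were 354.5 ± 54.9 (SD, n = 6) and 414.7 ± 95.3 (SD, n = 7), a difference of 0.21 ± 0.15 (SE; 95% interval -0.11 to 0.52; exact permutation p = 0.188). The difference was 0.12, -0.13, 0.04 and 0.47 in litters 219, 238, 250 and 262.

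The other Ezh1 probe sets did not order the embryos in the same way. In 1418290_a_at, wild-type embryos gave 98.7 to 285 and knock-out embryos 94.4 to 312, and knock-out 1, the highest in 1449023_a_at, was here the lowest of all. The difference was 0.21 ± 0.25 (SE), and 0.06 without wild-type 2, and in 1429629_at it was 0.12 ± 0.14 (SE). Over the 13 arrays, 1418290_a_at correlated with 1429629_at at r = 0.61 and with 1449023_a_at at r = -0.44. These values describe single arrays that share RNA quality and scaling.

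The balance of the catalytic subunits was compared as the log2 ratio of Ezh2 to Ezh1 within each array, using the probe set of highest mean for each gene. Only the difference of this ratio between embryos is read, since levels of different probe sets are not comparable. The ratio was 2.14 ± 0.48 (SD, n = 6) in wild-type and 1.93 ± 0.35 (SD, n = 7) in knock-out brains, a difference of -0.21 (95% interval -0.72 to 0.29; exact permutation p = 0.350, and 0.700 adjusted over the 2 ratios tested). It was highest in wild-type 2 (2.85), knock-out 2 (2.70) and wild-type 6 (2.54). Its sign turned between litters, from 0.48 in litter 219 and 0.05 in litter 238 to -0.23 and -0.66 in litters 250 and 262. Without the 3 embryos of litter 219 it was -0.30 (exact permutation p = 0.0286, and 0.0571 adjusted over the 2 ratios). This was the only unadjusted p under 0.05 among the settings in which a p was taken, and the adjustment does not cover the settings. No p was taken for the ratio with litter or replicate number as a block. With the mean over all probe sets past the filter for each gene, the difference was -0.19 (exact permutation p = 0.530).

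Eed, the subunit that reads the methyl mark, had a narrow spread among knock-out embryos. Probe set 1448653_at gave 716, 1109, 819, 1103, 1060 and 1094 in wild-type 1 to 6, with a median of 1077. In knock-out 1 to 7 it gave 928, 1109, 988, 982, 1004, 957 and 959, with a median of 982. All knock-out embryos fell inside the wild-type range, whose low end was set by wild-type 1 and wild-type 3. The means were 984 ± 171 (SD, n = 6) and 990 ± 58.2 (SD, n = 7), a difference of 0.03 ± 0.12 (SE; 95% interval -0.23 to 0.28; exact permutation p = 0.800).

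Suz12, the scaffold, showed the same low embryo. In 1420021_s_at wild-type 1 to 6 gave 569, 1154, 788, 875, 824 and 923, and knock-out 1 to 7 gave 870, 1081, 824, 782, 845, 888 and 877. Wild-type 1 was again the lowest and wild-type 2 the highest of the 13, followed by knock-out 2, and the remaining 10 embryos lay between 782 and 923. The means were 855 ± 190 (SD, n = 6) and 881 ± 95.5 (SD, n = 7), a difference of 0.07 ± 0.14 (SE; 95% interval -0.24 to 0.37; exact permutation p = 0.684). Probe sets 1427253_s_at and 1452364_at gave differences of 0.16 ± 0.17 and 0.14 ± 0.17 (SE). These were 0.05 and 0.04 without wild-type 1, and 0.24 and 0.21 without knock-out 1. Both probe sets followed each other at r = 0.93 and 1420021_s_at at r = 0.62 and 0.65.

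**Figure D2:**
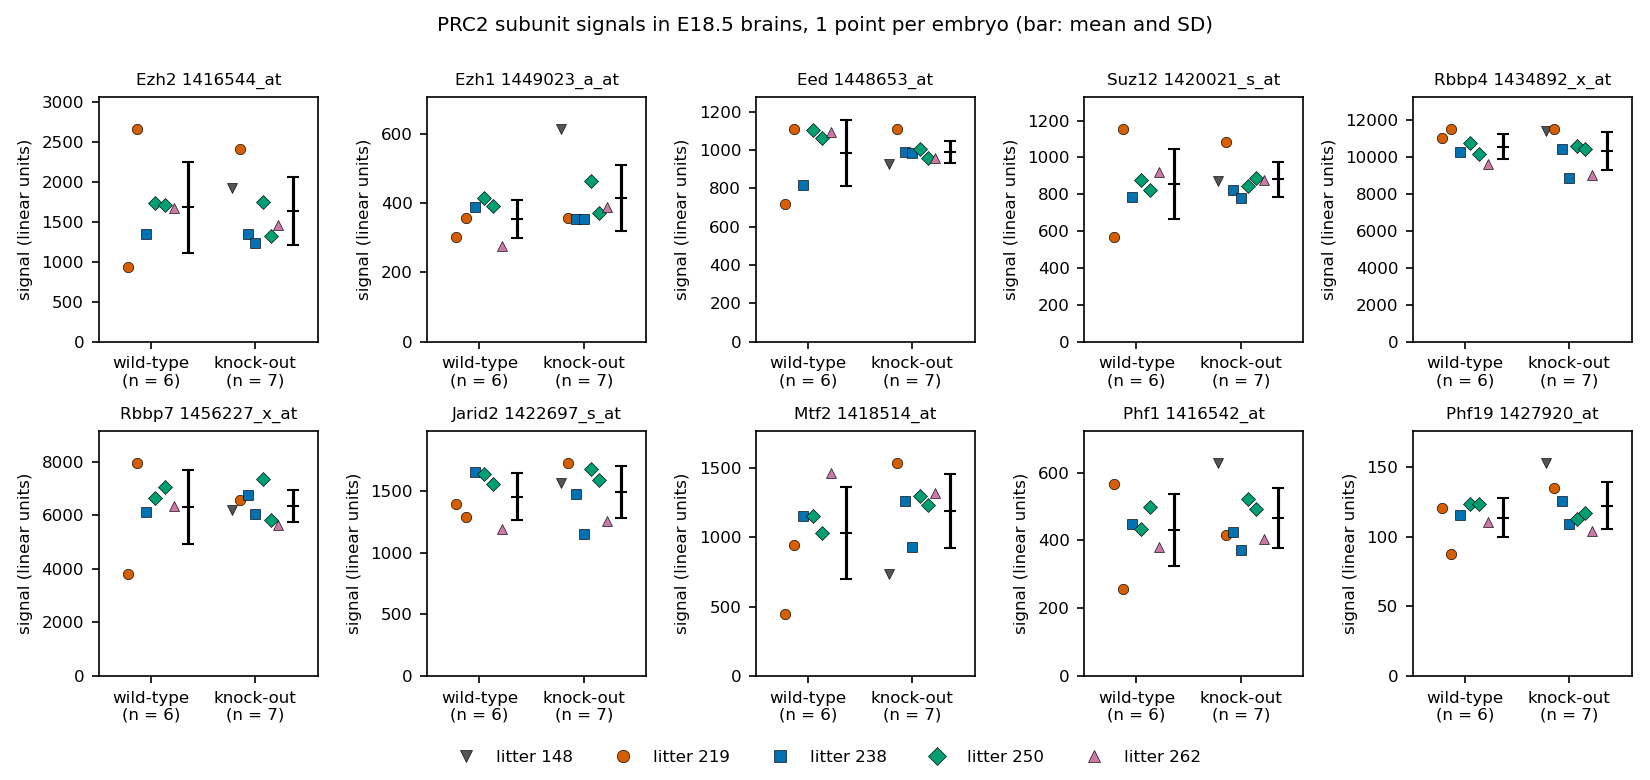
Signal on a linear scale for the probe set with the highest mean of each of the 10 PRC2 genes; each symbol is 1 embryo, its shape and colour give the litter, and the bar shows the mean and SD of each genotype. The genotypes overlap in every panel, and the litter 219 embryos hold both the lowest and the highest wild-type values of Ezh2 (937 and 2667) and Suz12 (569 and 1154).

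Rbbp4, a histone-binding subunit that PRC2 shares with several other chromatin complexes, had 3 tested probe sets. In 1434892_x_at the wild-type embryos ran from 9642 through a median of 10512 to 11519, and the knock-out embryos from 8884 through 10450 to 11517. The ranges overlapped, with knock-out 4 (8884) and knock-out 7 (9043) below every wild-type embryo, and the highest over the lowest of the 13 was 1.30-fold. The means were 10567 ± 666 (SD, n = 6) and 10330 ± 1031 (SD, n = 7), a difference of -0.04 ± 0.10 (SE; 95% interval -0.24 to 0.17). A name ending in _x_at marks probes that can bind more than 1 transcript, so related sequences may contribute to this signal.

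The other Rbbp4 probe sets varied more and in another order. In 1454791_a_at the values ran from 3138 in wild-type 2 to 6301 in knock-out 2, with a difference of -0.01 ± 0.16 (SE). In 1454875_a_at they ran from 1228 in wild-type 2 to 4093 in wild-type 6, with a difference of 0.17 ± 0.26 (SE) that was -0.03 without wild-type 2. Wild-type 2 and knock-out 1, the arrays with the high Actb ratio, were the lowest pair in both. Over arrays, 1454875_a_at correlated with 1434892_x_at at r = -0.62, so the difference read for Rbbp4 depends on the probe set.

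Rbbp7, the X-linked paralog of Rbbp4, had 2 tested probe sets. In 1456227_x_at wild-type 1 to 6 gave 3824, 7940, 6122, 6653, 7046 and 6352, and knock-out 1 to 7 gave 6201, 6549, 6770, 6058, 7355, 5809 and 5642. Wild-type 1 stood far below the other 12 embryos, and wild-type 2 was the highest. The means were 6323 ± 1381 (SD, n = 6) and 6341 ± 595 (SD, n = 7), a difference of 0.03 ± 0.15 (SE; 95% interval -0.29 to 0.35). In 1415775_at the difference was -0.09 ± 0.15 (SE; 95% interval -0.42 to 0.23), the lowest of the 23, with wild-type 1 at 3748 and knock-out 1 at 3330 below all others. With the log2 signal of Xist, which coats the inactive X chromosome, as a covariate, the differences were 0.03 ± 0.16 and -0.09 ± 0.16 (SE).

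The log2 ratio of Rbbp4 to Rbbp7 was 0.77 ± 0.38 (SD, n = 6) in wild-type and 0.70 ± 0.14 (SD, n = 7) in knock-out brains. Both of its probe sets, 1434892_x_at and 1456227_x_at, have the ending _x_at, so related sequences may contribute to either signal. The difference was -0.07 (95% interval -0.41 to 0.27; exact permutation p = 0.814, which stayed 0.814 after adjustment over the 2 ratios). Wild-type 1 alone, at 1.52, set the wild-type spread, since the other 12 embryos lay between 0.53 and 0.88. Without wild-type 1 the difference was 0.08.

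Jarid2, an accessory subunit that helps PRC2 to bind chromatin, had 3 tested probe sets with small differences. In 1422697_s_at the wild-type embryos ran from 1192 through a median of 1476 to 1657, and the knock-out embryos from 1151 through 1564 to 1725. Those ranges overlapped over nearly their whole length, and the means were 1455 ± 193 (SD, n = 6) and 1491 ± 214 (SD, n = 7). The difference was 0.03 ± 0.13 (SE; 95% interval -0.24 to 0.30), and in 1422698_s_at, which followed it at r = 0.87, it was 0.11 ± 0.14 (SE). The third probe set, 1450710_at, had a difference of 0.03 ± 0.19 (SE) and was lowest in knock-out 1, at 233, then in wild-type 2, at 338. It correlated with the others at r = 0.02 and -0.19.

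Mtf2, a Polycomb-like protein that binds CpG-rich DNA, had the largest differences of the set in 3 of its 5 tested probe sets, none of which passed the test. In 1418514_at wild-type 1 to 6 gave 450, 943, 1153, 1152, 1033 and 1463, and knock-out 1 to 7 gave 735, 1536, 1263, 934, 1301, 1234 and 1321. Wild-type 1 was the lowest of all 13 and knock-out 1 the next, while knock-out 2, from the litter of wild-type 1, was the highest. The means were 1032 ± 335 (SD, n = 6) and 1189 ± 267 (SD, n = 7), a difference of 0.25 ± 0.24 (SE; 95% interval -0.27 to 0.76; exact permutation p = 0.397). Differences in 1418515_at, 1418516_at and 1449115_at were 0.12 ± 0.24, 0.32 ± 0.25 and 0.08 ± 0.20 (SE). In each of these, wild-type 1 was again the lowest of the 13 embryos. Without wild-type 1 the difference was 0.03 in 1418514_at, -0.08 in 1418515_at and 0.06 in 1418516_at, and without litter 219 it was -0.10 in the first and -0.06 in the last. Without knock-out 1 it was 0.36, 0.09 and 0.39 in the same probe sets.

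Probe set 1445151_at of Mtf2 had the largest difference of the 23 and the only one with the same sign in all 4 litters, against 13.7% of all probe sets. Its signal was just above the filter, at 49.8, 47.1, 33.9, 50.2, 45.6 and 106 in wild-type 1 to 6 and 46.0, 76.2, 64.2, 46.8, 71.0, 72.7 and 149 in knock-out 1 to 7. Its mean log2 value was 6.10 in wild-type embryos, under the filter cut of 6.19, and 6.44 in knock-out embryos. It thus passed the filter only through the group where it was higher, and the size of its difference cannot be read apart from that. Wild-type 6 and knock-out 7, both numbered 262, were the highest of their groups, and the groups overlapped. The difference was 0.34 ± 0.24 (SE; 95% interval -0.17 to 0.84; exact permutation p = 0.220), 0.18 without knock-out 7 and 0.51 without wild-type 6. Within litters it was 0.52, 0.51, 0.46 and 0.43 in litters 219, 238, 250 and 262. With litter as a block, to which knock-out 1 adds nothing as the only embryo of litter 148, it was 0.48 ± 0.095 (SE). The limma p was then 0.000523 and the adjusted p 0.521. In that setting 1147 of all probe sets had an unadjusted limma p under 0.05 and a higher knock-out mean, and 115 a lower one.

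Phf1 and Phf19, the other Polycomb-like proteins, had 1 tested probe set each. Phf1, read by 1416542_at, ran from 256 through a median of 442 to 566 in wild-type and from 373 through 424 to 628 in knock-out embryos. Wild-type 2 was the lowest and knock-out 1 the highest embryo, and the difference was 0.13 ± 0.17 (SE; 95% interval -0.24 to 0.50; exact permutation p = 0.510). Phf19, read by 1427920_at, had weak signals of 87.5 through a median of 118 to 124 in wild-type and 104 through 117 to 153 in knock-out embryos. The same arrays held its extremes, and the difference was 0.09 ± 0.11 (SE; 95% interval -0.15 to 0.33). Without those arrays, which are the ones with a high Actb ratio, the difference was -0.08 in Phf1 and -0.02 in Phf19.

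The 8 probe sets below the filter belonged to Ezh1, Eed, Rbbp4, Mtf2 and Phf19 with 1 each and to Suz12 with 3. When every probe set was tested, 6 of these 8 had unadjusted p above 0.05, with differences between -0.17 and 0.19. Rbbp4 1456260_at had medians of 38.7 in wild-type and 87.8 in knock-out embryos and highest values of 64.7 and 141, while its lowest value of all, 10.1, was that of knock-out 4. The difference was 0.91 ± 0.39 (SE; limma p = 0.0332, adjusted p = 0.939; exact permutation p = 0.0618). Mtf2 1459811_at ran from 0.64 to 6.5 and from 2.2 to 35.2, a difference of 0.61 ± 0.21 (SE; limma p = 0.0119, adjusted p = 0.884; exact permutation p = 0.0152). Both lie under the signal kept for the test. Without the filter 5.23% of all probe sets had an unadjusted p under 0.05, 4.68% being higher in knock-out brains, and 0.0555% were called.

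Litter 219 stood apart from the others. In this litter, which held wild-type 1, wild-type 2 and knock-out 2, the knock-out value exceeded the wild-type mean in all 23 probe sets, with a median difference of 0.55 against 0.25 over all probe sets. That contrast sets 1 knock-out embryo against 2 wild-type embryos, and the share of all probe sets that were higher was not taken in any litter. In the other litters with both genotypes, 13, 11 and 7 of the 23 were higher, with medians of 0.03, -0.06 and -0.08 against 0.01, 0.04 and -0.01 over all probe sets. Without litter 219 the median of the PRC2 probe sets was -0.06, with 4 higher and 19 lower, and that over all probe sets 0.01. None was called then either. The 3 embryos of litter 219 also had the highest red-cell marker, Alas2, an enzyme of heme synthesis and the only marker of its list past the filter. Its deviation was 1.74 in wild-type 1, 1.29 in wild-type 2 and 1.69 in knock-out 2, against -1.14 to 0.38 in the other embryos, and its part in the PRC2 values was not tested.

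Wild-type 1 was the lowest of the 13 embryos in 11 of the 23 probe sets and the highest in none. Over all probe sets it was the lowest in 24.0% and the highest in 12.7%. Wild-type 2 and knock-out 2 were each the highest in 6 of the 23, against 9.51% and 8.25% of all probe sets. Wild-type 2 and knock-out 1, the arrays with a high Actb ratio, were the lowest pair in 4 of the 23, namely Ezh1 1418290_a_at, Jarid2 1450710_at and Rbbp4 1454791_a_at and 1454875_a_at. That order occurred in 9.22% of all probe sets, and the part of RNA quality in it was not tested. Without those 2 arrays the median difference of the 23 was 0.11, against 0.07 over all probe sets.

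**Figure D3:**
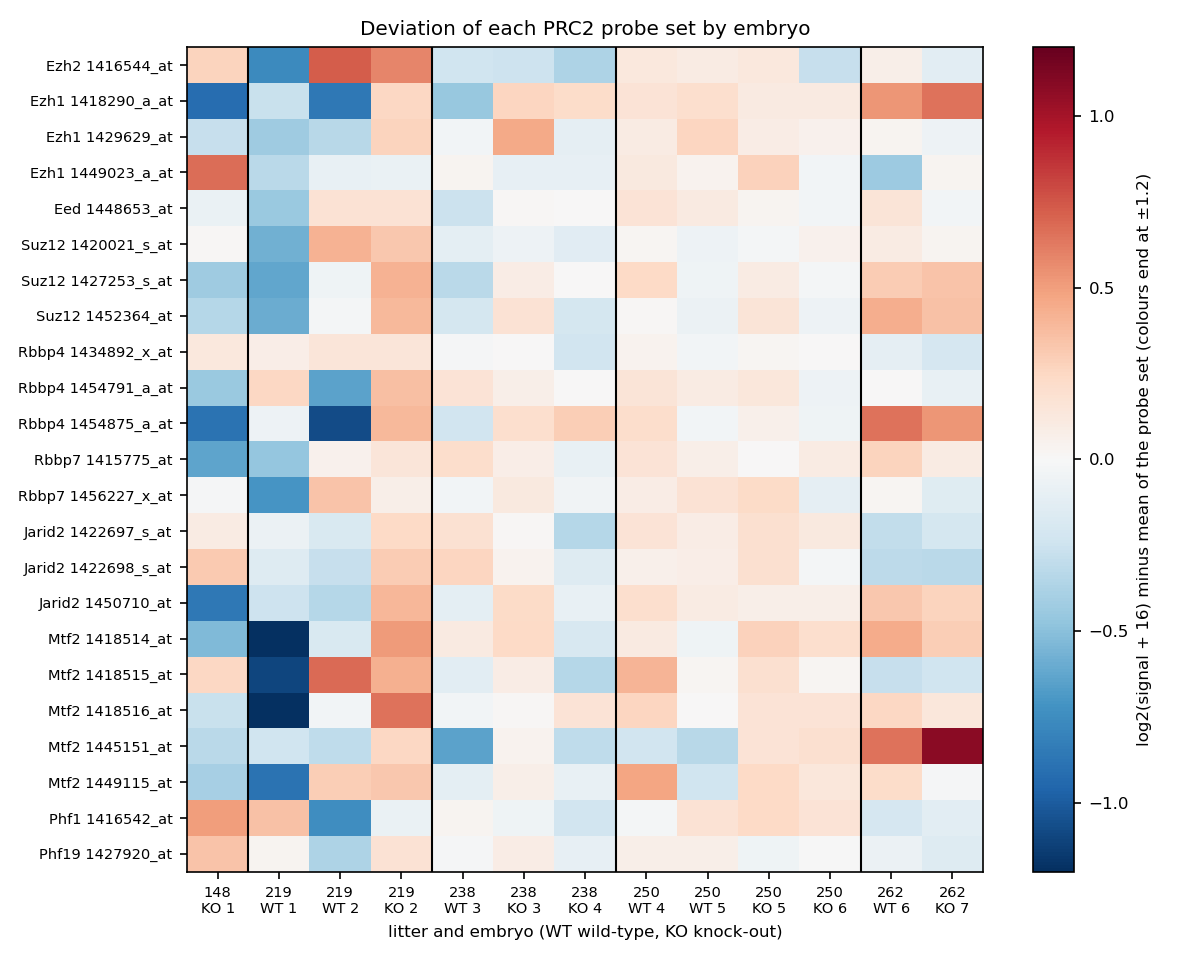
Deviation of each tested PRC2 probe set (rows) from its own mean over the 13 embryos, in log2 units, by embryo (columns, ordered by litter; WT wild-type, KO knock-out; vertical lines part the litters). Wild-type 1 is low in most rows and lowest in 11 of 23, and the rows of 1 gene can differ, as for Ezh1 and Rbbp4 in wild-type 2 and knock-out 1.

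Ezh2, Eed and Suz12, the catalytic core, varied together between embryos in the probe sets compared. Over the 13 arrays and with the probe set of highest mean for each gene, Ezh2 and Suz12 correlated at r = 0.90 (Spearman's rho 0.67), Eed and Suz12 at r = 0.83 (rho 0.66) and Ezh2 and Eed at r = 0.76 (rho 0.68). Rbbp7 followed them at r = 0.77 with Ezh2, 0.82 with Eed and 0.78 with Suz12. This was read in 1456227_x_at, which correlated with the other tested probe set of Rbbp7 at r = 0.48. Without the 2 arrays farthest from the median of Ezh2 (wild-type 1 and wild-type 2), r was 0.77 for Ezh2 and Suz12 and 0.55 for Ezh2 and Eed. Without those farthest from the median of Eed (wild-type 1 and wild-type 3), r was 0.59 for Eed and Suz12. For Rbbp7, r was 0.42 with Ezh2 and -0.01 with Suz12 without wild-type 1 and wild-type 2, so its relation to Suz12 rested on these arrays. With Eed it was 0.58 without wild-type 1 and wild-type 3. Rbbp4 had r = 0.47 with Ezh2, 0.23 with Suz12, 0.12 with Rbbp7 and 0.01 with Eed, while Mtf2 reached 0.68 with Eed and 0.65 with Suz12. These correlations describe arrays that share RNA quality, litter and scaling, and carry no test.

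Ezh1 had r = 0.30 with Ezh2, 0.30 with Rbbp7, 0.12 with Suz12 and 0.03 with Eed. Without knock-out 1 and wild-type 6, r was 0.36, 0.63, 0.32 and 0.47. The low values with Rbbp7 and Eed thus rested on those arrays, while that with Ezh2 changed little. Phf1 ran opposite to Suz12 at r = -0.61, which became -0.09 without wild-type 1 and wild-type 2. Phf1 and Phf19 correlated at r = 0.78, and at 0.24 without knock-out 1 and wild-type 2.

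**Figure D4:**
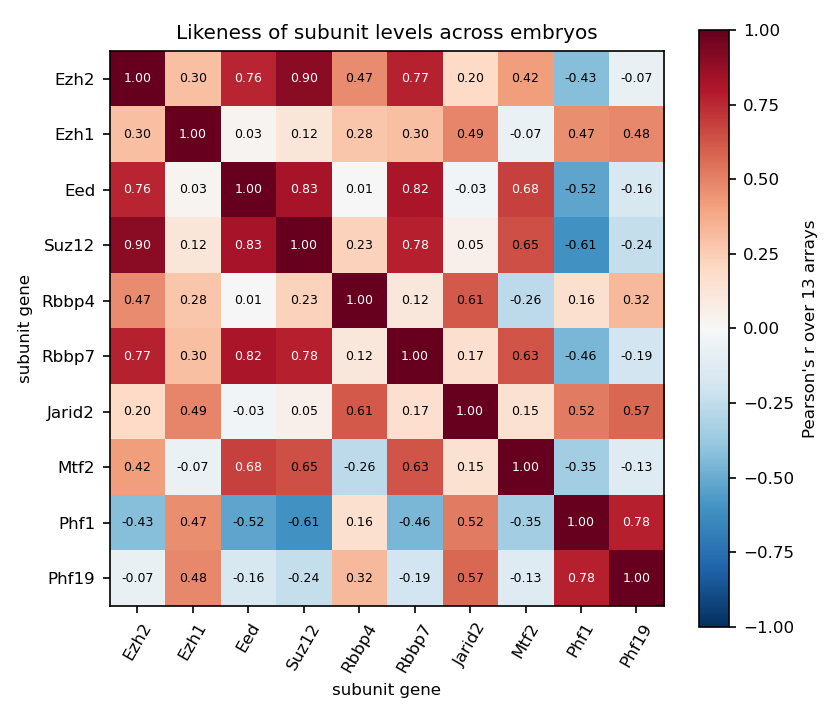
Pearson's r between the log2(signal + 16) values of the 10 PRC2 genes over the 13 embryos, using the probe set with the highest mean for each gene; colours run from -1 to 1 and each cell prints its r. Ezh2, Eed, Suz12 and Rbbp7 reach 0.76 to 0.90 with each other and Ezh1 0.03 to 0.30 with them. Without 2 arrays these become -0.005 to 0.77 and 0.32 to 0.63. The arrays left out were those farthest from the median of a single gene of each pair, so they differ between pairs.

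Among 12919 other genes past the filter, those whose pattern over the 13 embryos was most like that of Ezh2 were Snhg5 (r = 0.96), Ppp2r1b (r = 0.95) and Depdc1a (r = 0.93). For Suz12 they were Hdac2, a histone deacetylase (r = 0.96), Tmem74 (r = 0.96) and Prkd3 (r = 0.96). The closest to Eed were Hnrnpm, an RNA-binding protein (r = 0.95), Zscan21 (r = 0.94) and Zfp868 (r = 0.93). Ezh1 was most closely followed by Cacna1d, a calcium channel subunit (r = 0.94), Snhg18 (r = 0.91) and Pxdn (r = 0.90). Without the 2 arrays farthest from the median of the PRC2 gene, these 12 correlations lay between 0.63 and 0.94. They are the highest of all genes compared and describe these arrays only.

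The genes that work with or against PRC2 likewise gave no call in limma, apart from 3 transcripts of the Meg3 cluster. Of the other accessory subunits, 4 of 5 were tested and 0 called, with Lcor at 0.19 ± 0.24 and Aebp2 at -0.05 ± 0.10 (log2 difference ± SE). Both H3K27 demethylases, which remove the PRC2 mark, were tested without a call, Kdm6b at 0.30 ± 0.40 and Kdm6a at 0.18 ± 0.24. The PR-DUB complex, which removes ubiquitin from histone H2A, had 4 of 4 higher and 0 called, with Asxl2 at 0.32 ± 0.18 and Asxl3 at 0.16 ± 0.18. Over all probe sets tested 72.5% had the higher mean in knock-out brains. That share was not taken over genes, for this list or for those that follow. In each of these lists no gene had an unadjusted p under 0.05.

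PRC1, the complex that ubiquitinates histone H2A, had 20 of 23 genes tested, of which 12 had a higher and 8 a lower knock-out mean and 0 were called. The nearest to the threshold were Pcgf6 at 0.24 ± 0.17 and Cbx8, which binds the PRC2 mark, at 0.16 ± 0.11. The Trithorax and COMPASS genes, which methylate histone H3 at lysine 4 and counter Polycomb, had 12 of 13 tested, 9 higher, 3 lower and 0 called, with Kmt2a at 0.25 ± 0.16 and Dpy30 at -0.10 ± 0.11. Complexes that share Rbbp4 or Rbbp7 (NuRD, Sin3 and CAF-1) had 15 of 17 tested, 10 higher, 5 lower and 0 called. Their smallest p was that of Mta3, a NuRD subunit, at -0.20 ± 0.10 (limma adjusted p = 1.00), followed by Chd4, the NuRD remodeller, at 0.36 ± 0.27.

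Developmental regulators known from textbooks as targets of PRC2 repression did not pass the test either. Of 24 such genes 12 were tested, the others lying below the filter, and 7 had a higher and 5 a lower knock-out mean, with 0 called and a median of 0.05. Pax3, a dorsal neural tube factor, had a signal of 111 ± 41.8 (SD, n = 6) in wild-type and 145 ± 67.8 (SD, n = 7) in knock-out brains, a difference of 0.31 ± 0.28 (SE). Tbx3 had a difference of 0.21 ± 0.21 (SE). Over all 12920 genes the median difference was 0.04, and over the 10 PRC2 genes 0.05.

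Of the 4 listed transcripts of the Meg3 cluster, 3 fell, and the other had a higher knock-out mean without a call. Meg3 is given above, Rian fell by 4.05 ± 0.30 (SE) on the log2 scale (limma adjusted p = 6.34e-06) and Mirg fell by 2.46 ± 0.23 (limma adjusted p = 0.000137). Meg3, Rian and Mirg are non-coding transcripts of the same imprinted region.

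Markers of dividing cells, in which Ezh2 is known to be high, differed between embryos without a genotype call. Of 10 markers 8 were tested, 1 with a higher and 7 with a lower knock-out mean. Their summed level, as the mean deviation in log2 units, ran from -0.21 to 0.25 in wild-type and from -0.45 to 0.59 in knock-out embryos. The lowest level, -0.45, was that of knock-out 4 (Ezh2 signal 1235), and the highest, 0.59, that of knock-out 2 (Ezh2 signal 2415). Wild-type 1, the lowest in Ezh2, had a level of -0.21 and wild-type 2, the highest in Ezh2, one of 0.18. Knock-out 1 had a level of -0.23 with an Ezh2 signal of 1927. Neuronal markers ran from -0.14 to 0.08 and from -0.12 to 0.11, and progenitor markers from -0.06 to 0.13 and from -0.46 to 0.24. The part of cell composition in the PRC2 signals was not tested.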

How the data were processed

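Total RNA (5 µg per embryo) was labelled with the Affymetrix one-cycle procedure, per the labels' protocols. The authors' deposited table holds intensities on a linear scale, 1 per probe set, and the summary method, scaling and software are not given in the sources used here. The array annotation named 34945 of 45037 non-control probe sets with 1 symbol, 932 with several and left 9160 unnamed, and 34741 were matched to RefSeq genes. Intensities were turned into log2(signal + 16), and the 27022 probe sets with a mean above the 40th percentile were compared between 6 wild-type and 7 knock-out arrays in R 4.3.3 by a two-sided linear model of limma 3.58.1 (lmFit, eBayes), Benjamini-Hochberg adjusted over all of them. The method was tested on simulated data. Single values were also given a two-sided exact permutation test over all 1716 splits of the arrays, which ignore litter and whose smallest p is 0.000583. Plots were made with matplotlib 3.10.9 in Python 3.11.15. Where a gene has several probe sets, lists, ratios and correlations use the one with the highest mean.

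The members and the gene lists were chosen with earlier results of these data known. Every member probe set is named, with, from each other list, the genes past the threshold or otherwise the 2 with the smallest p, and the 3 genes most like Ezh2, Ezh1, Eed and Suz12. Replicate numbers did not pair the arrays, since same-numbered arrays had residual correlations of -0.429 to 0.204, with 1 of 6 over 0.1. The labels do not call the leading number a litter; its consensus correlation was 0.143. The labels do not say more than that each array is 1 embryo, so p-values measure the spread between these embryos. The number of arrays limits the precision. Alternatives varied the pseudocount, the filter, the scaling, litter and replicate blocks, covariates and the arrays included.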

Additional observations from a re-analysis of the deposited data

Results flagged for a closer look

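Within each genotype, an embryo was looked at again where its gap to the nearest other embryo was large for the range of its group. This held in 12 of the 46 groups of values, where chance gives about 1 in 20, or 2.3. The probe sets of a gene share arrays, so the 12 are not independent.

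Knock-out 1 was the low embryo in 4. Its signal was 94.4 in Ezh1 1418290_a_at, where the next knock-out was 208, and 233 in Jarid2 1450710_at, where the next was 408. In Rbbp4 1454875_a_at it was 1404 with the next at 2506, and in Rbbp7 1415775_at 3330 with the next at 4880. Its Actb ratio was 1.81, whose part in these values was not tested.

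Wild-type 1 was the low embryo in 3. It gave 3748 in Rbbp7 1415775_at (next 5385), 3824 in Rbbp7 1456227_x_at (next 6122) and 337 in Mtf2 1418516_at (next 957). Its Actb ratio was 1.34, inside the range of the 11 arrays.

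Wild-type 2, with an Actb ratio of 2.92, was low in Rbbp4 1454791_a_at at 3138 (next 4927) and in Phf19 1427920_at at 87.5 (next 111). Knock-out 2 was high in Suz12 1420021_s_at at 1081 (next 888). In Mtf2 1445151_at the high embryos were wild-type 6 at 106 (next 50.2) and knock-out 7 at 149 (next 76.2), both of litter 262.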

How the results depend on the processing

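No PRC2 probe set was called in limma under any of the alternatives run, and the count with an unadjusted p under 0.05 was at most 2, without the filter. That count was 1 with litter as a fixed block, without wild-type 6 and without litter 262. The median difference was -0.0885 after median centring, where that of all probe sets was -0.12, and 14 of the 23 differences changed sign; without litter 219, 15 did. Over all probe sets, the 17 calls became 11 with the filter at the 60th percentile, where fewer probe sets are tested. With 1 probe set per gene they became 3, since most of the 17 were repeats: 11 of Meg3, 3 of Rian and 2 of Mirg. The replicate number as a block, which leaves knock-out 7 without a partner, gave 9 calls and a PRC2 median of 0.09, with 0 PRC2 calls; the ratio of Ezh2 to Ezh1 was -0.20 with it and -0.07 with litter as a block. That ratio was -0.30 without litter 219 (exact permutation p = 0.0286, and 0.0571 adjusted over the 2 ratios), and the cause was not tested. No other setting in which that ratio had a p gave an unadjusted p under 0.05. With litter or replicate number as a block the ratio was given no p. Over the mean of all probe sets past the filter it was -0.19, and without 1 array at a time it ranged from -0.34 to -0.07. The ratio of Rbbp4 to Rbbp7 was 0.0708 over the mean of all probe sets and 0.0410 without litter 219, and ranged from -0.118 to 0.0808 without 1 array at a time. Signal over background limits the 8 probe sets below the filter.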
